A study of Mus musculus with 9 samples.

Results

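Expression of the collagens that build basement membranes, short-chain lattices and beaded filaments was followed across 3 tissues of the embryonic mouse knee. The 9 genes were taken by symbol: Col4a1, Col4a2, Col15a1 and Col18a1 of the basement membrane group, the short-chain collagens Col8a1 and Col8a2, and Col6a1, Col6a2 and Col6a3 of the beaded filaments. Every probe annotated to one of these symbols was used, which gave 16 of the 45281 probes on the array, for 8 of the 9 genes. Col6a3 was matched to no probe and was not analysed here. All tissue was labelled as hindlimb of the outbred CD-1 strain at embryonic day 16 (E16), with no treatment or mutation named, and there were 3 arrays of meniscus, 3 of cruciate ligament and 3 of articular cartilage. The meniscus is the fibrocartilage pad of the knee, the cruciate ligaments are the bands that join femur and tibia inside the joint, and the articular cartilage caps the bone ends. The labels do not state whether the arrays of a tissue stem from separate animals, so each p-value reflects only the scatter among these samples, part or all of which may be technical.

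Collagen IV chains assemble into the sheet-like network of every basement membrane, around vessels, nerves, muscle fibres and fat cells and beneath epithelia. Collagens XV and XVIII carry glycosaminoglycan chains and sit at the border between basement membrane and the fibrillar matrix, collagen VIII forms hexagonal lattices in vessel walls and the cornea, and collagen VI forms beaded microfilaments close to the cell surface, including the pericellular matrix of chondrocytes. The chains work as partners: alpha 1 and alpha 2 chains of collagen IV combine in 1 molecule, and collagen VI needs its alpha 1 and alpha 2 chains together with a longer chain.

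Col4a1 and Col4a2 lie head to head. In RefSeq, build GRCm38.p6, Col4a2 has an annotated start at base 11312805 on the plus strand of chromosome 8 and Col4a1 at base 11312826 on the minus strand. The 22 bases at chr8:11312805-11312826 belong to the first bases of both transcripts with these starts. The Col4a1 gene entry reaches further upstream, to base 11312889. The 22 bases are shown, on the plus strand, because they hold these starts of both partner genes.

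Col4a1 and Col4a2 start sites: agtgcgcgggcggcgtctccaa

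For Col8a1, Col6a1 and Col6a2, the 250 bases before an annotated start are shown, since the first 2 of these genes were low in ligament and the third, the partner of Col6a1, was not called. All 3 windows lie on the minus strand and are written 5′ to 3′ on that strand, at chr16:57754738-57754987, chr10:76726045-76726294 and chr10:76623631-76623880 of GRCm38.p6 (RefSeq). Capitals mark matches, on either strand, to the TATA box (TATAAA), the Sp1-type box (GGGCGG), the CCAAT box, a Sox-type motif (AACAAT) and an AP-1-type motif (TGANTCA). No match overlaps another in these windows.

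Col8a1: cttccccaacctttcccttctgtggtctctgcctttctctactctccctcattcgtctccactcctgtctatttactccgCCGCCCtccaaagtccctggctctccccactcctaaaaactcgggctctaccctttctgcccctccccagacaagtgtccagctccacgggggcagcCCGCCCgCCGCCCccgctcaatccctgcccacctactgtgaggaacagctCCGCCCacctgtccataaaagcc
Col6a1: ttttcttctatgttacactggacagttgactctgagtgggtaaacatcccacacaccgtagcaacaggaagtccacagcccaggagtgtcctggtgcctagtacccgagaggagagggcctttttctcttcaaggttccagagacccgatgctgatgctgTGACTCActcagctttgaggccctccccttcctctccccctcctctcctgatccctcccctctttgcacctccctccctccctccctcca
Col6a2: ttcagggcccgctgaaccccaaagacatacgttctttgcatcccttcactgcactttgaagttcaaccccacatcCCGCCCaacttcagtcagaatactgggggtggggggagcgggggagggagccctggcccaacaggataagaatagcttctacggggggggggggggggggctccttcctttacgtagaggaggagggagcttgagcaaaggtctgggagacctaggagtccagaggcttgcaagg

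Col8a1 held 4 matches to the Sp1-type box, and so did the window of its partner Col8a2, which is not shown. Col6a2 has a pair of annotated starts, and the window shown, before the one further upstream, held 1 match, while the window before the other, at chr10:76623405-76623654, held 3. Col6a1 held 0 of that motif and 1 match to the AP-1-type motif. Over the same window of all 32817 annotated mouse promoters, 32.7% held the Sp1-type box and 6.75% held the AP-1-type motif. The TATA box was in 12.4%, the CCAAT box in 33.8% and the Sox-type motif in 9.42% of them, and these 3 had no match in the windows shown. Col15a1, which moved with Col8a1 and Col6a1, held no match to any of the 5 motifs, and Col4a1 and Col4a2 held 1 match to the CCAAT box each, with 2 matches to the Sp1-type box in Col4a2 and 0 in Col4a1. These matches describe letters only.

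Signals are given as background-corrected, quantile-normalized log2 values, and a probe was called detected on an array at a detection p below 0.01. Of the 16 probes, 13 were detected on all 3 arrays of at least 1 tissue and entered the tests, at least 1 for each of the 8 genes. The other 3, a pair of Col18a1 probes and 1 Col8a2 probe, were detected on 0 of 9 arrays. The ligament arrays stood apart in median signal before normalization, at 147.4 to 209.7, against 93.4 to 101.2 for meniscus and 99.5 to 103.8 for cartilage. They detected 18.0% to 20.9% of all probes, against 28.9% to 31.9% on the meniscus arrays and 29.4% to 35.6% on the cartilage arrays. That they form a batch of their own is inferred from these values, since the sample titles name none. Of the 13 tested collagen probes, the meniscus had 12 above background on each of its 3 arrays, the ligament 6 and the cartilage 12. The median SD between arrays of a tissue, over all tested probes, was 0.25 in meniscus, 0.50 in ligament and 0.26 in cartilage. Such a batch and the tissue cannot be told apart for the ligament. In these bulk samples, fewer cells of a type and less RNA per cell cannot be told apart either. The ligament label was checked against tendon and ligament markers: 1 ligament array detected Scx, no array of any tissue detected Tnmd, and 7 of 9 listed markers could be tested. Ligament minus cartilage called 4 of these 7 higher (Col1a1, Mkx, Kera and Fmod) and 1 lower (Egr1, adjusted p = 0.00291 in limma), against 3.7% and 10.8% of named genes tested. Meniscus minus ligament called 2 of the 7 higher (Egr1 and Tnc) and 3 lower (Fmod, Mkx and Col1a1), against 8.96% and 2.49%. Kera averaged 7.28 in meniscus and 7.27 in ligament.

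**Figure D1:**
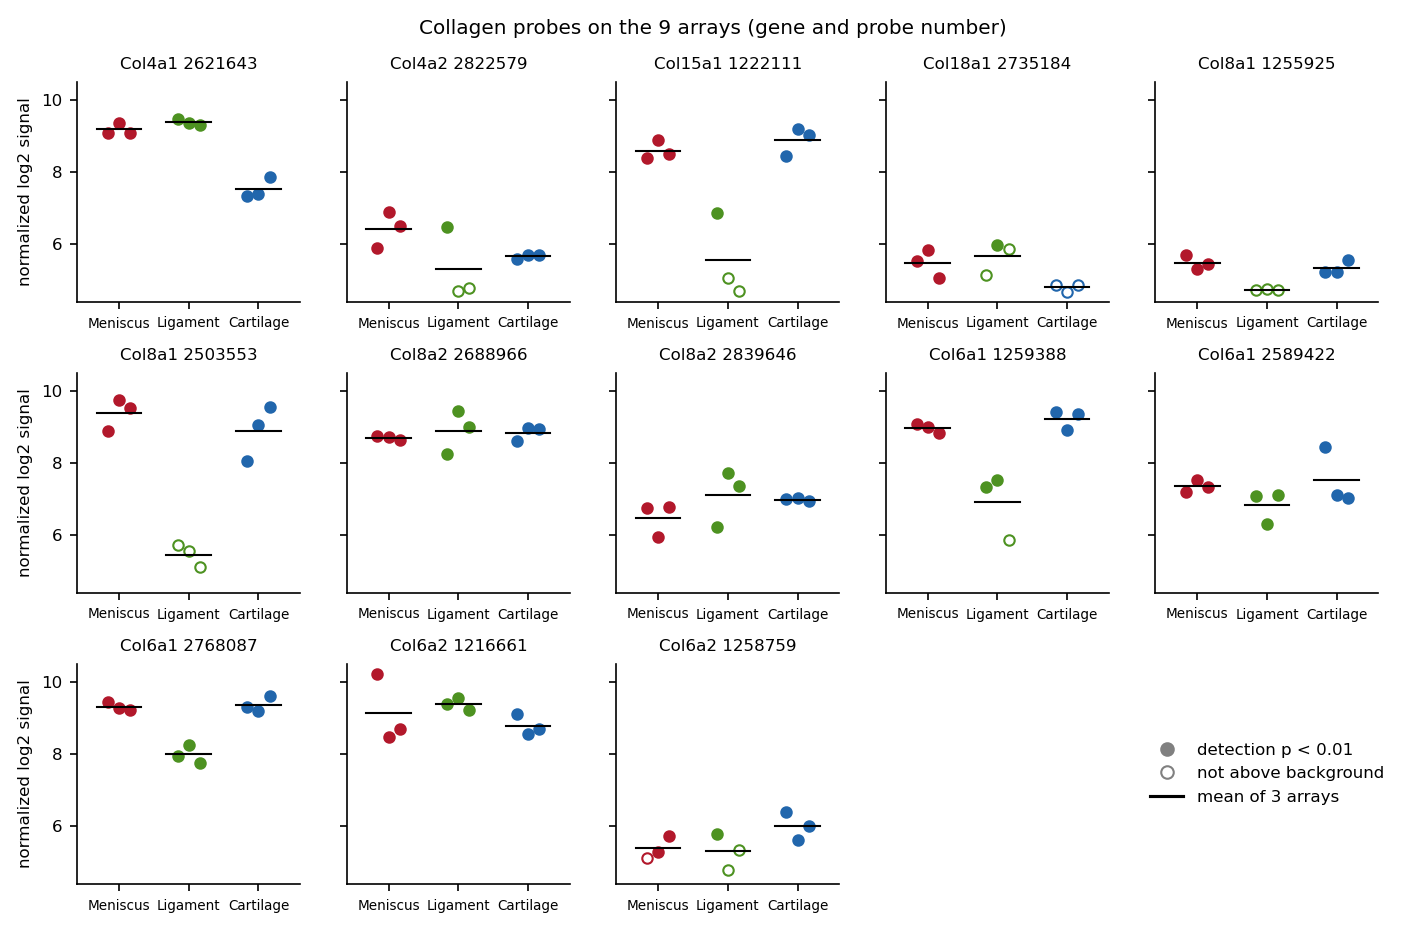
Normalized log2 signal (vertical axis) of the 13 tested collagen probes, 1 panel per probe with its number, in meniscus, ligament and cartilage; each point is 1 array, the line is the mean of 3 arrays, and open points are arrays where the probe was not above background. Col4a1 is low in cartilage, while Col15a1, Col8a1 and Col6a1 are low in ligament.

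Col4a1, the chain that forms most of the collagen IV network together with Col4a2, separated both fibrous tissues from cartilage. Its probe read 9.08, 9.35 and 9.08 on the meniscus arrays, 9.47, 9.35 and 9.30 on the ligament arrays, and 7.32, 7.38 and 7.84 on the cartilage arrays. The 6 fibrous arrays all lay above the 3 cartilage arrays, and meniscus and ligament overlapped. Col4a1 rose in meniscus over cartilage by 1.66 ± 0.22 on the log2 scale (SE, n = 3 arrays per tissue), a 3.15-fold difference with a 95% interval of 1.16 to 2.15 (limma, Benjamini-Hochberg adjusted p = 0.0202 over all 12538 tested probes). This call was lost without any 1 meniscus array, with adjusted p between 0.0761 and 0.115, and without cartilage replicate 1 or 2, with adjusted p = 0.0926 and 0.114. The difference itself stayed between 1.56 and 1.70 in those 5 fits. Of all probes tested in each of them, 0 or 1 were called higher in meniscus than in cartilage, against 37 in the main fit.

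In the ligament contrasts the median tested probe was shifted, by 0.24 for meniscus minus ligament and by -0.23 for ligament minus cartilage, and by 0.01 for meniscus minus cartilage. With cyclic loess in place of quantile normalization these shifts were 0.02, -0.02 and -0.002. Differences that involve the ligament are therefore given relative to the median probe, with adjusted p-values of the unshifted fit. Over all tested probes, the quantile fit called 1130 higher and 393 lower in meniscus than in ligament, against 504 and 504 after cyclic loess, and 512 higher and 1391 lower in ligament than in cartilage, against 712 and 758. Relative to that median, Col4a1 rose in ligament over cartilage by 2.08, with a 95% interval of 1.59 to 2.58 (limma, adjusted p = 0.00243), and this call held under all 20 alternatives run. Meniscus minus ligament was -0.44 relative to the median, with an interval of -0.94 to 0.06 (limma, adjusted p = 0.597), so the order of meniscus and ligament was not resolved.

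Col4a2, the partner chain, was dim. It read 5.89, 6.89 and 6.49 in meniscus, 6.47, 4.70 and 4.78 in ligament, and 5.57, 5.69 and 5.71 in cartilage. It was detected on all meniscus and cartilage arrays but only on ligament replicate 1, the one ligament array within the meniscus range. Meniscus arrays all lay above cartilage arrays, at a difference of 0.77 with an interval of -0.26 to 1.80 (limma, adjusted p = 0.633). None of its 3 contrasts passed the test. Without ligament replicate 1, meniscus minus ligament was fitted at 1.71 before the median is taken off and passed, at an adjusted p of 0.00904 (limma), with both remaining ligament arrays below background.

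Col15a1 and Col18a1, the collagens at the outer face of basement membranes, did not share a pattern. The Col15a1 probe read 8.38, 8.88 and 8.49 in meniscus, 6.87, 5.06 and 4.70 in ligament, and 8.44, 9.19 and 9.01 in cartilage. Ligament lay below both other tissues on every array, and it was above background on replicate 1 alone, so with 2 of 3 ligament values below background the differences that follow are fitted values and not measured sizes. Relative to the median probe Col15a1 rose in meniscus over ligament by 2.80, with an interval of 1.66 to 3.93 (limma, adjusted p = 0.00840). In ligament against cartilage it fell by 3.11 on the log2 scale, with an interval of -4.24 to -1.97 (limma, adjusted p = 0.00474). Both calls held under all 19 alternatives run, with unshifted differences as small as 1.68 and -1.92 where no background was corrected. Meniscus and cartilage overlapped, at a difference of -0.30 with an interval of -1.43 to 0.84.

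The only tested Col18a1 probe lay near background. Its levels were 5.53, 5.83 and 5.07 in meniscus, where all 3 arrays detected it, 5.15, 5.96 and 5.87 in ligament, where replicate 2 alone did, and 4.87, 4.67 and 4.87 in cartilage, where none did. Both fibrous tissues lay above cartilage on every array. The probe passed the filter through meniscus alone, so a higher level there was built into the selection. No fold is given against cartilage, where no array detected it, and 2 of 3 ligament arrays were below background as well. Neither contrast with cartilage passed (limma, adjusted p = 0.442 for meniscus and 0.0753 for ligament). The ligament contrast passed under 2 of 19 alternatives, cyclic loess and without ligament replicate 1, at adjusted p = 0.0287 and 0.0221.

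Among the short-chain collagens, Col8a1 differed between tissues and its partner Col8a2 did not pass any test. The brighter Col8a1 probe read 8.88, 9.75 and 9.52 in meniscus, 5.72, 5.55 and 5.11 in ligament, and 8.05, 9.06 and 9.56 in cartilage. No ligament array rose above background, while meniscus and cartilage overlapped. Against the detection floor of the ligament arrays, the mean of Col8a1 was at least 9.51-fold higher in meniscus than in ligament and at least 6.82-fold lower in ligament than in cartilage, relative to the median probe (limma, adjusted p = 0.00260 and 0.00227). Here a bound compares the brighter tissue's mean with the higher, on each dim array, of the probe's own value and the lowest signal among detected probes. It takes no account of the scatter between arrays. The fitted intervals relative to the median probe were 2.79 to 4.58 and -4.10 to -2.31 on the log2 scale, and they reach folds below these bounds. Both calls held under all 19 alternatives run, and without background correction the unshifted differences were 2.42 and -2.02, against 3.92 and -3.43. The second Col8a1 probe was dim, at 5.69, 5.30 and 5.44 in meniscus, 4.71, 4.75 and 4.74 in ligament and 5.23, 5.22 and 5.56 in cartilage. It was below background on all 3 ligament arrays as well, and its bound was under 1, so no fold is given. It was called higher in meniscus than in ligament (limma, adjusted p = 0.0483), a call kept under 3 of 18 alternatives and lost without any 1 of the 9 arrays, with adjusted p between 0.0552 and 0.149.

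Col8a2 codes for the second collagen VIII chain, which can form lattices with or without the first. Its brighter probe read 8.74, 8.72 and 8.64 in meniscus, 8.25, 9.43 and 8.98 in ligament, and 8.59, 8.96 and 8.94 in cartilage. The 3 tissues overlapped throughout. The dimmer probe read 6.74, 5.94 and 6.78 in meniscus, 6.22, 7.71 and 7.35 in ligament, and 6.99, 7.02 and 6.94 in cartilage. There meniscus lay below cartilage on every array, by -0.50 with an interval of -1.37 to 0.37 (limma, adjusted p = 0.749). Without ligament replicate 1 it was called lower in meniscus than in ligament, at -1.04 before the median is taken off (limma, adjusted p = 0.0449).

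Col6a1, the shared alpha 1 chain of collagen VI, was lower in ligament than in both other tissues by 2 of its 3 probes. The brightest probe read 9.43, 9.26 and 9.22 in meniscus, 7.95, 8.26 and 7.76 in ligament, and 9.29, 9.18 and 9.60 in cartilage. It was detected on all 9 arrays, with every ligament array below every other. Relative to the median probe it rose in meniscus over ligament by 1.08, with an interval of 0.58 to 1.58, and in ligament against cartilage it fell by 1.15 on the log2 scale, with an interval of -1.65 to -0.64 (limma, adjusted p = 0.00890 and 0.00598). Both calls held under all 20 alternatives run.

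The next Col6a1 probe showed larger differences. It read 9.08, 9.002 and 8.84 in meniscus, 7.32, 7.53 and 5.85 in ligament, and 9.41, 8.92 and 9.35 in cartilage, and ligament replicate 3 was not above background. It rose in meniscus over ligament by 1.83, with an interval of 0.92 to 2.74, and in ligament against cartilage it fell by 2.10, with an interval of -3.01 to -1.19, relative to the median probe (limma, adjusted p = 0.0144 and 0.00746). The meniscus call was lost without meniscus replicate 1 or 2, at adjusted p = 0.0551 and 0.0593, and with only the meniscus and ligament arrays fitted, at 0.0527. The third probe read 7.20, 7.54 and 7.33 in meniscus, 7.08, 6.32 and 7.11 in ligament, and 8.43, 7.12 and 7.03 in cartilage. It did not pass in any contrast, and its differences were 0.28 (interval -0.60 to 1.16) for meniscus minus ligament and -0.46 (interval -1.34 to 0.42) for ligament minus cartilage, relative to the median probe. Between meniscus and cartilage all 3 Col6a1 probes overlapped.

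Col6a2, the alpha 2 chain, was not called by either probe. The brighter one read 10.22, 8.46 and 8.69 in meniscus, 9.38, 9.55 and 9.22 in ligament, and 9.09, 8.55 and 8.68 in cartilage. Meniscus replicate 1 stood above all other arrays, and every ligament array was above every cartilage array. Relative to the median probe, ligament minus cartilage was 0.84 with an interval of -0.11 to 1.78 (limma, adjusted p = 0.361). The second Col6a2 probe, annotated to a cDNA clone and not to the curated transcript, read 5.13, 5.29 and 5.72 in meniscus, 5.78, 4.79 and 5.35 in ligament, and 6.38, 5.61 and 5.99 in cartilage, above background on 2 meniscus, 1 ligament and 3 cartilage arrays. This probe passed the filter through cartilage alone, so a higher level there was built into the selection. Its ligament minus cartilage difference was -0.46 relative to the median probe, with an interval of -1.18 to 0.26 (limma, adjusted p = 0.175). The estimates of the Col6a2 probes differ in sign, but neither interval excludes no difference, so a disagreement between them is not shown.

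**Figure D2:**
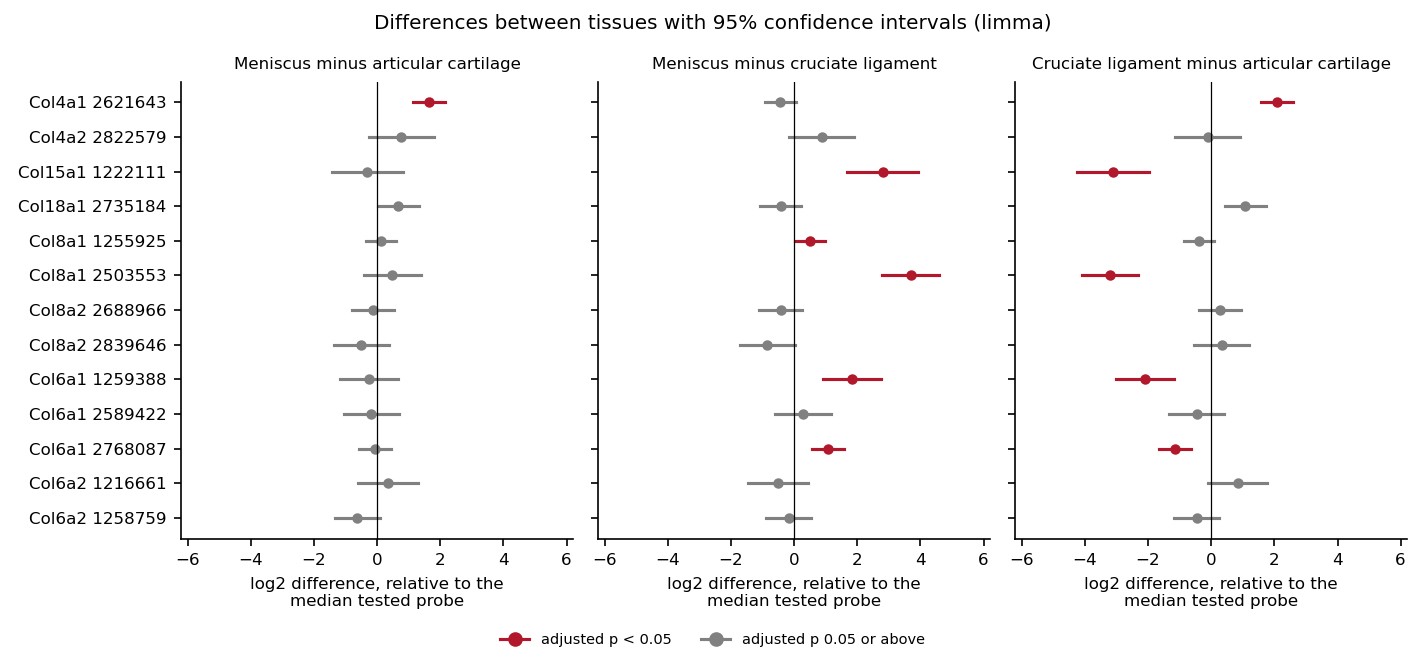
Log2 difference relative to the median tested probe (horizontal axis) with its 95% confidence interval for the 13 tested collagen probes (rows), in meniscus minus cartilage, meniscus minus ligament and ligament minus cartilage; red marks an adjusted p under 0.05 in the unshifted limma fit. Col4a1 is the only red probe in the first panel, and Col15a1, Col8a1 and Col6a1 lie on opposite sides of 0 in the other panels; Col8a1 on all 3 ligament arrays and Col15a1 on 2 of 3 were not above background, so their ligament differences are no measured sizes.

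Counted over the 13 tested probes, meniscus minus cartilage gave 1 higher and 0 lower, against a background of 0.295% of all tested probes called higher and 0.295% lower. The tissues did not overlap for 4 of 13 probes (3 higher in meniscus, 1 lower), against 25.6% of all probes. The median difference of the 13 was -0.05, against 0.01 over all tested probes, and 2 of them had an unadjusted p under 0.05. Meniscus minus ligament gave 5 higher and 0 lower, from Col15a1, Col8a1 and Col6a1, where 9.01% of all probes were called higher and 3.13% lower. Arrays did not overlap for 6 of 13 probes, all higher in meniscus, against 32.2%. The median of the 13 was 0.28 above the median probe. Ligament minus cartilage gave 1 higher, Col4a1, and 4 lower, where 4.08% of all probes were called higher and 11.1% lower. Arrays did not overlap for 8 of 13 probes (3 higher in ligament, 5 lower), against 33.8%. The median of the 13 was -0.38 relative to the median probe. The F test over the 3 tissues called 5 of 13 probes, of Col4a1, Col15a1, Col8a1 and Col6a1, against 14.1% of all probes. The contrasts share arrays, so the ligament counts are not separate pieces of evidence.

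Partner chains were compared on the same array through their brightest tested probes, a comparison chosen after the levels had been seen. A difference between probes has no meaning as a level, but its change between tissues shows whether the probes changed unequally. Probes of the same gene can do so too. Those of Col6a1 changed by 1.83, 1.08 and 0.28 in meniscus minus ligament, relative to the median probe. An unequal change of the probes therefore does not by itself show that the chains changed unequally. Col8a1 minus Col8a2 was 0.15, 1.03 and 0.88 in meniscus, -2.54, -3.89 and -3.87 in ligament, and -0.54, 0.10 and 0.62 in cartilage. Every ligament array lay below every other array, with mean changes of 4.11 for meniscus minus ligament and -3.49 for ligament minus cartilage, and with Col8a1 at background in ligament. Col6a1 minus Col6a2 was -0.79, 0.80 and 0.53 in meniscus, -1.43, -1.30 and -1.47 in ligament, and 0.20, 0.63 and 0.92 in cartilage. Ligament again lay below both, with mean changes of 1.58 for meniscus minus ligament and -1.98 for ligament minus cartilage. Col4a1 minus Col4a2 was 3.19, 2.46 and 2.59 in meniscus, 3.00, 4.65 and 4.52 in ligament, and 1.75, 1.70 and 2.14 in cartilage. Cartilage lay below both fibrous tissues, by 0.89 on average relative to meniscus and by 2.20 relative to ligament, and meniscus and ligament overlapped. Col4a2 was below background on ligament replicates 2 and 3, so the ligament differences there, and the change of 2.20, are not measured sizes. With 3 arrays against 3, an exact two-sided permutation test cannot give a p below 0.1, which 6 of the 9 comparisons reached (0.15 after Benjamini-Hochberg adjustment over the 9), so none passed.

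**Figure D3:**
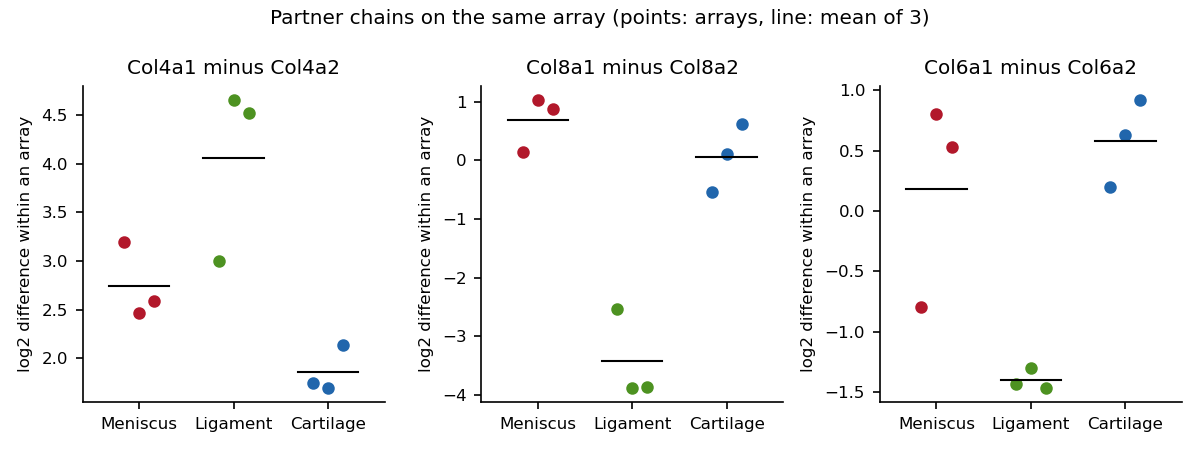
Within-array log2 difference between partner chains (vertical axis, a scale of its own in each panel) for Col4a1 minus Col4a2, Col8a1 minus Col8a2 and Col6a1 minus Col6a2 in meniscus, ligament and cartilage; each point is 1 array and the line the mean of 3. The ligament arrays lie lowest for collagens VIII and VI, and the cartilage arrays lowest for collagen IV.

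Calls were also counted among the genes that build basement membranes with collagen IV. Of 32 listed partners, 29 were on the array and 12 could be tested, 1 probe each. Meniscus minus cartilage called 0 of 12 (limma; without adjustment, 2 genes passed 0.05 as higher and 0 as lower), against 0.387% of named genes called higher and 0.346% lower. Meniscus minus ligament called 0 of 12 (limma; without adjustment, 1 as higher and 2 as lower), against 8.96% higher and 2.49% lower. Ligament minus cartilage called 2 higher and 0 lower, against 3.7% and 10.8% of named genes. Lamb1, the laminin beta 1 chain, read 10.83, 10.68 and 10.31 in ligament and 9.46, 9.13 and 9.62 in cartilage. It rose in ligament by 1.43 relative to the median probe (limma, adjusted p = 0.0103). Pxdn, the peroxidase that cross-links collagen IV with sulfilimine bonds, read 9.80, 9.59 and 9.16 in ligament and 8.83, 8.32 and 8.57 in cartilage. It rose by 1.17 (limma, adjusted p = 0.0492) and passed in 7 of 20 alternatives. The 12 genes had a median difference of 0.20, -0.29 and 0.34 relative to the median probe in meniscus minus cartilage, meniscus minus ligament and ligament minus cartilage, against 0.02, 0.03 and -0.01 over all named genes tested. The other collagen IV chains on the array, Col4a3, Col4a4 and Col4a6, were detected on 0 arrays, and Col4a5 was detected on all 9 without a call.

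Receptors and ligands of these collagens formed a second list of 29 genes, 27 of them on the array and 17 tested. Meniscus minus cartilage gave 0 higher and 3 lower, where 0.387% of named genes were called higher and 0.346% lower. Matn4, a matrilin that binds collagen VI filaments to other matrix, averaged 9.59 in meniscus and 12.08 in cartilage, and fell in meniscus by 2.48 on the log2 scale (limma, adjusted p = 0.0221). Matn3, a cartilage matrilin, was not above background in meniscus and was at least 2.80-fold lower there in the main fit (limma, adjusted p = 0.0173). Its fitted log2 difference was as small as -0.78 among the alternatives run, which is below that bound. Matn3 passed the filter through cartilage alone, so a lower level in the other tissues was built into the selection. Cspg4, the NG2 proteoglycan, a cell-surface receptor of collagen VI, read 6.53, 6.34 and 6.93 in meniscus and 8.72, 8.63 and 8.10 in cartilage. It fell in meniscus by 1.89 (limma, adjusted p = 0.0302). Meniscus minus ligament gave 1 higher, the hyaluronan receptor Cd44, by 0.98 relative to the median probe, and 1 lower, Cspg4, by -1.65 (limma, adjusted p = 0.0264 and 0.0183), against 8.96% and 2.49% of named genes. Ligament minus cartilage gave 1 higher, against 3.7% of named genes, the collagen VI-binding receptor Antxr1, by 1.03 (limma, adjusted p = 0.0272). It gave 3 lower, against 10.8% of named genes: Matn1 by -3.30, Matn4 by -1.17 and Matn3, not above background in ligament and at least 1.38-fold lower (limma, adjusted p = 0.0459, 0.0312 and 0.00209). The Matn1 readings in ligament were 5.55, 7.45 and 10.08, against 10.70, 11.85 and 11.10 in cartilage, and its call held under 8 of 19 alternatives. Calls of the others held under 14 of 22 (Cspg4 against cartilage), 16 of 20 (Cspg4 and Cd44 against ligament), 14 of 20 (Antxr1), 16 of 22 and 11 of 20 (Matn4 in meniscus and in ligament), and 15 of 21 and 19 of 19 alternatives (Matn3 in meniscus and in ligament). The median of the 17 was -0.004, -0.51 and 0.29 relative to the median probe in the 3 contrasts. The collagen VI chains Col6a4, Col6a5 and Col6a6 and the short-chain Col10a1 were detected on 0 arrays.

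**Figure D4:**
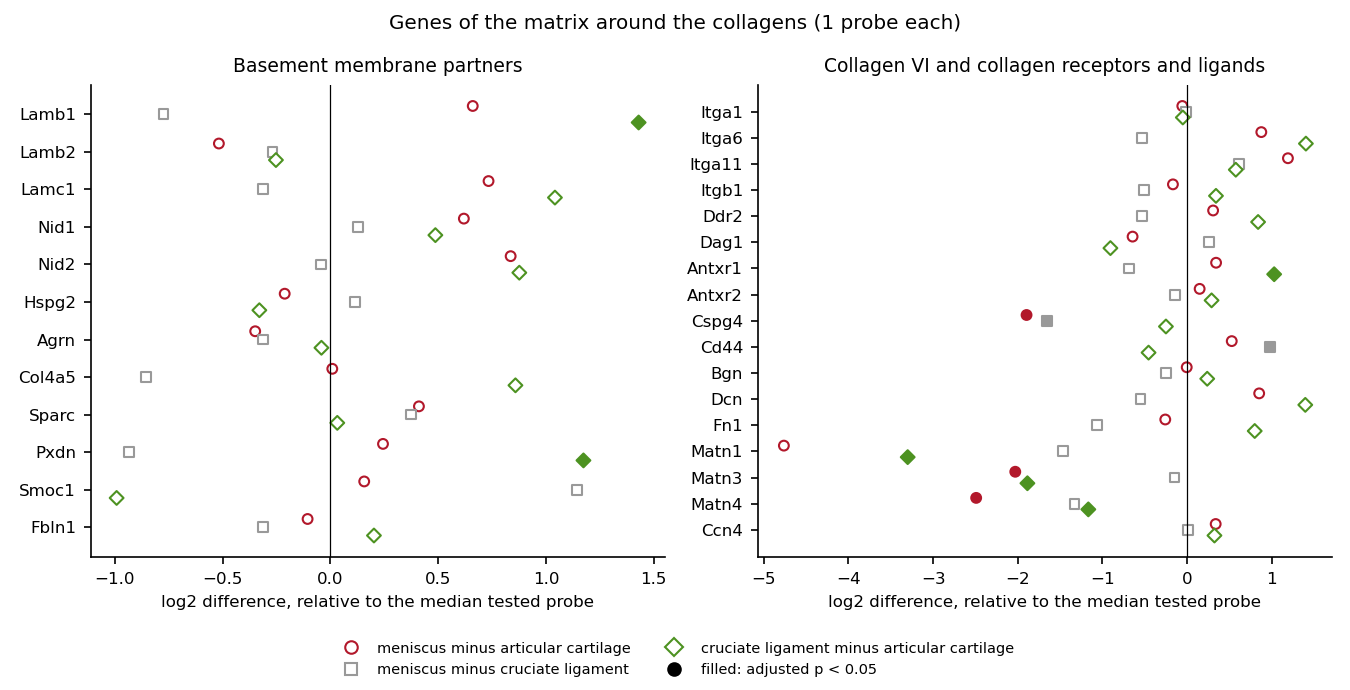
Log2 difference relative to the median tested probe (horizontal axis) for 12 basement membrane partners and 17 receptors and ligands (rows), with circles for meniscus minus cartilage, squares for meniscus minus ligament and diamonds for ligament minus cartilage; filled symbols passed an adjusted p of 0.05. The filled basement membrane symbols are Lamb1 and Pxdn in ligament minus cartilage, and the lowest filled receptor and ligand symbols are the matrilins.

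Marker lists of other cell types are given beside the collagens as levels. All 8 tested endothelial genes, out of 13 listed, were detected on all 3 meniscus arrays. Emcn was detected on all 3 ligament arrays too. The others passed the filter through meniscus alone, so a higher mean there was built into their selection. The mean level of the 8 was 5.69 to 6.60 on the meniscus arrays, 5.06 to 6.33 on the ligament arrays and 4.81 to 4.92 on the cartilage arrays. Cdh5 was detected on all 3 meniscus arrays and on 0 ligament and 0 cartilage arrays, Pecam1 on 3, 1 and 1, and Tie1 and Eng on none. Limma called 0 of the 8 in meniscus minus cartilage (without adjustment, 6 passed 0.05 as higher), where 0.387% of named genes were called higher. It called Cldn5 higher in meniscus than in ligament, where 8.96% of named genes were, and Emcn higher in ligament than in cartilage, where 3.7% were (adjusted p = 0.0301 and 0.0406). The lowest endothelial mean of the ligament, 5.06, was that of replicate 3. The mean of 4 tested pericyte and smooth muscle genes, out of 11 listed, was 7.94 to 8.35 in meniscus, 8.31 to 8.55 in ligament and 6.55 to 7.12 in cartilage. Rgs5, Myl9 and Mcam were called higher in ligament than in cartilage (limma, adjusted p = 0.00585, 0.00882 and 0.00441), where 3.7% of named genes were. Myl9 was called higher in meniscus than in cartilage (limma, adjusted p = 0.0221), where 0.387% were. Mcam was called lower in meniscus than in ligament (limma, adjusted p = 0.0255), where 2.49% were. Acta2 was not called in any contrast, and Pdgfrb and Tagln were detected on 0 arrays. The mean of 5 tested macrophage and osteoclast genes, out of 14 listed, was 6.96 to 8.29 in meniscus, 5.36 to 8.25 in ligament and 5.27 to 5.93 in cartilage. All but Tyrobp (Adgre1, Aif1, Mrc1 and Ctss) passed the filter through meniscus alone, so a higher mean there was built into the selection. Of the 5, limma called only Tyrobp, higher in ligament than in cartilage (adjusted p = 0.0310), where 3.7% of named genes were called higher. The mean of 12 tested chondrocyte genes was 7.20 to 7.84 in meniscus, 7.05 to 8.22 in ligament and 9.59 to 10.14 in cartilage. The ligament value of 8.22 was that of replicate 3. Limma called 4 of the 12 lower in meniscus than in cartilage, where 0.346% of named genes were. It called 10 lower in ligament than in cartilage, where 10.8% were. Matn3 and Snorc, called lower in both contrasts, passed the filter through cartilage alone, so a higher level there was built into their selection. Sox9 was called higher in meniscus than in ligament (limma, adjusted p = 0.0266), where 8.96% were. The mean of 7 tested tendon and ligament genes was 8.92 to 9.27 in meniscus, 9.28 to 9.38 in ligament and 8.54 to 8.93 in cartilage. Kera was called higher and Fmod lower in meniscus than in cartilage (limma, adjusted p = 0.0474 and 0.0466), where 0.387% and 0.346% of named genes were. The 3 tested erythroid genes averaged 6.71 to 7.18, 6.93 to 8.39 and 5.63 to 6.38, and the 2 tested skeletal muscle genes 6.82 to 7.19, 5.28 to 6.94 and 6.04 to 6.61, in meniscus, ligament and cartilage. Among these, Hbb-y, Alas2 and Mylpf passed the filter through meniscus alone. Of both lists only Hba-a1 was called. Hba-a1 was higher in ligament than in cartilage and lower in meniscus than in ligament (limma, adjusted p = 0.00334 and 0.0151), against 3.7% and 2.49% of named genes. No Schwann cell or epithelial marker passed the detection filter. The part of other cell types in the collagen differences was not tested.

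**Figure D5:**
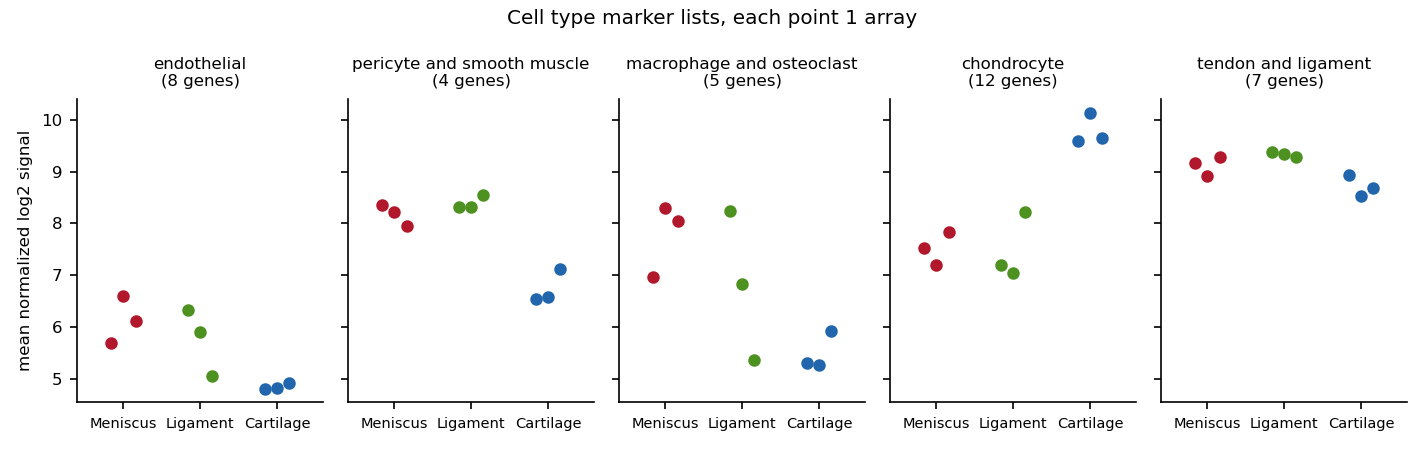
Mean normalized log2 signal (vertical axis) of the tested genes of 5 marker lists in meniscus, ligament and cartilage, each point 1 array. The tested endothelial genes other than Emcn, and the macrophage and osteoclast genes other than Tyrobp, passed the filter through meniscus alone. The chondrocyte means overlap between meniscus and ligament.

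Among 7233 named genes, those with the pattern most like each of 4 collagens over the 9 arrays were picked by Pearson's r. This is a description, since the arrays share tissues and any batch that goes with them. For Col4a1 they were Ptn, the secreted growth factor pleiotrophin (r = 0.992), Igfbp3, an insulin-like growth factor binding protein (0.982), and Marcks, a membrane-bound substrate of protein kinase C (0.974). For Col8a1 they were Nfatc1, a calcineurin-dependent transcription factor (0.989), Fchsd1 (0.986) and Ubqln2, a ubiquilin (0.979). For Col15a1 they were Fkbp5, a co-chaperone of steroid receptors (0.986), Pcna, the DNA polymerase clamp (0.983), and Kti12 (0.980). For Col6a1, by its brightest probe, they were Mlf2 (0.983), Slc18b1 (0.982) and Stxbp6 (0.981).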

How the data were processed

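Total RNA of 9 samples was extracted with a PicoPure kit, amplified with the Ovation Pico system and labelled with biotin, per the labels' protocols. The deposited scanner tables hold, per probe and array, a linear intensity with its detection p-value, and the deposited value table gives the authors' processed intensity, which named the rows and served as a second source of values for the meniscus and cartilage arrays. The submitters' processing notes name GenomeStudio; its version and the authors' normalization are not given in the sources used here. Scanner rows carry no names, so each of the 45281 rows was matched by its ranks on the 9 arrays to a row of the value table, whose probes the platform annotation names. The median rank difference was 96 places to the partner and 4549.5 to the next candidate, and leaving out any 1 array kept 100% of partners. Of the probes, 34885 had 1 gene symbol, 18 several and 10378 none, and 34807 gene identifiers were found in RefSeq's GRCm38.p6 table.

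Signals were corrected with limma's neqc (offset 16, controls inferred from detection p-values) and quantile normalized over the 9 arrays (R 4.3.3, limma 3.58.1). Probes were kept if some tissue had a detection p below 0.01 on each of its 3 arrays, 12538 in all, and fitted with lmFit and eBayes over the 9 arrays, with Benjamini-Hochberg adjustment within each contrast and a call at an adjusted p under 0.05. All collagen probes were named. Of the other lists, called genes were named up to the 6 largest per list and contrast, with 1 probe per gene, the brightest kept. In the chondrocyte list they were counted, and only Sox9, Matn3 and Snorc were named there. For 7234 named genes the brightest kept probe stood for the gene, also in the search for like patterns, which took the 3 highest correlations. The fit was tested on simulated data. Partner chains were compared with scipy 1.17.1. The number of arrays limits the precision. The genes and lists were chosen with earlier results of these data known.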

Additional observations from a re-analysis of the deposited data

How the results depend on the processing

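Between meniscus and cartilage, 1 collagen probe was called, and leaving out 1 array gave 0 to 1. Replicate numbers did not pair the samples (correlations of same-numbered deviations -0.03 to 0.14, median 0.006). With the replicate block, meniscus minus cartilage called 0 (Col4a1, limma, adjusted p = 0.0730), meniscus minus ligament 4, ligament minus cartilage 5 and the F test 5. Of all 12538 tested probes, that block left 3 called higher in meniscus than in cartilage. The 5 calls of meniscus minus ligament became 1 among probes detected on all 9 arrays, where 6 collagen probes were left to test, 3 with 1 probe per gene, 3 with only these tissues fitted, and 3 to 6 without 1 array. The 5 calls of ligament minus cartilage became 2 among probes detected on all 9 arrays and 5 to 6 without 1 array, and the 5 of the F test became 2 and 5 to 7. Only differences that were not called turned direction, and the cause was not tested. Leaving out 1 array in turn, meniscus minus cartilage ran from -0.42 to 0.28 for Col6a1 probe 2589422 (0.089 with array weights), from -0.14 to 0.068 for Col6a1 probe 2768087 and from -0.20 to 0.68 for Col6a2 probe 1216661. Meniscus minus ligament ran from -0.44 to 0.022 for Col18a1, from -0.50 to 0.085 for Col8a2 probe 2688966, from -0.81 to 0.072 for Col6a2 probe 1216661 and from -0.19 to 0.32 for Col6a2 probe 1258759 (-0.30 with cyclic loess). Ligament minus cartilage ran from -0.21 to 0.37 for Col8a2 probe 2688966 and from -0.19 to 0.55 for Col8a2 probe 2839646, and it was 0.10 for Col4a2 with cyclic loess. Low detection on the ligament arrays limits the ligament values of Col4a2, Col15a1, Col18a1 and Col8a1.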
